A study of Mus musculus with 12 samples.

Results

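The 45 genes described here encode the machinery that folds secreted proteins in the endoplasmic reticulum (ER) and the unfolded protein response that adjusts it. They were chosen by name, as 5 sensors and transcription factors, 11 chaperones and co-chaperones, 12 disulfide isomerases and oxidases, 8 factors of ER-associated degradation and 9 parts of the translocon and signal peptidase. All 45 were found among the 55376 genes of the count table and all 45 passed the filter on low counts, as did 15952 genes in all. RNA was sequenced from the proximal colon of 12 mice, 6 per genotype (EPR fl/fl and EPR cKO), at an age of 12 weeks and without treatment, with 1 library per animal. In both groups loxP sites flank the promoter and exon 1 of EPR, an epithelial long non-coding RNA, and the controls carry no Cre. The CDX2P-NLS Cre transgene is present only in the EPR cKO mice, where a human CDX2 promoter drives Cre in epithelial cells from the end of the ileum through the colon, so that an effect of Cre itself and one of EPR loss cannot be told apart. Whole frozen tissue was homogenized, so that muscle, vessels, nerves and immune cells were included. The paper describes Cre in the epithelium, and the state of the EPR gene in the other cells was not examined here.

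Proteins that enter the secretory pathway pass through the Sec61 channel, lose their signal peptide and are folded by chaperones and by enzymes that form disulfide bonds. When unfolded protein builds up, the sensors IRE1, ATF6 and PERK raise the supply of chaperones, slow translation and feed misfolded protein to the proteasome. Goblet cells of the colon place a heavy load on this system because mucins are large and rich in cysteine. They use dedicated parts for it, among them IRE1 beta, encoded by Ern2, and the isomerase AGR2.

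Many chaperone genes are switched on through the ER stress response element (ERSE), the motif to which ATF6 and XBP1 are known to bind. RefSeq promoter windows (GRCm38.p6, 250 bases before to 50 after the start site) were found for 37 of the 45 members, which excluded Ern2, Atf6, Hyou1, Manf, Derl1, Sec61a1, Sec11c and Ssr2. Its letters, CCAAT and CCACG with any 9 bases between them, searched on both strands, occurred in the windows of 9 of these 37 genes (24.3%), against 0.137% of all 27025 genes with a window. The matches are shown because most belong to chaperone genes, whose levels are described below, while Ero1lb is among the members with the lowest p. Each is written 5′ to 3′ in the orientation of the motif with its fixed ends in capitals, and positions are counted from the start site at 0.
Hspa5, chr2:34772025-34772043, -65 to -47: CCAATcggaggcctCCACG
Hsp90b1, chr10:86705638-86705656, -212 to -194: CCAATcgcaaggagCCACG
Hsp90b1, chr10:86705533-86705551, -107 to -89: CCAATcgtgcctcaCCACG
Calr, chr8:84847075-84847093, -162 to -144: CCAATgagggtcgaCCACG
Canx, chr11:50325800-50325818, -145 to -127: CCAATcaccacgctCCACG
Dnajc3, chr14:118937827-118937845, -105 to -87: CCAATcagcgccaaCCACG
Creld2, chr15:88819520-88819538, -126 to -108: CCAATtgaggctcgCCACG
Pdia6, chr12:17266491-17266509, -98 to -80: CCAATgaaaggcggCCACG
Ero1lb, chr13:12565682-12565700, -201 to -183: CCAATgaggcgggaCCACG
Syvn1, chr19:6046532-6046550, -44 to -26: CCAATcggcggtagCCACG

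The related element ERSE-II (ATTGG and CCACG with any 1 base between them, which shares CCACG with ERSE) occurred at Dnajb11 and Herpud1, and in 0.0444% of all genes. The letters TGACGTG, the core of the UPR element, occurred at Hspa5, Txndc5 and Txndc11, and in 2.22% of all genes. The letters TTGCATCA, an ATF4 composite site, occurred at Herpud1, and in 1.03% of all genes. Both strands were searched for each. The whole windows of Hspa5 and Agr2, both on the plus strand, are given for comparison, because Hspa5 is the classical target of the response and Agr2 the most abundant member per length. Capitals mark the ERSE and the UPR element core of Hspa5, and the window of Agr2 held none of the 4 motifs.
Hspa5, chr2:34771840-34772139: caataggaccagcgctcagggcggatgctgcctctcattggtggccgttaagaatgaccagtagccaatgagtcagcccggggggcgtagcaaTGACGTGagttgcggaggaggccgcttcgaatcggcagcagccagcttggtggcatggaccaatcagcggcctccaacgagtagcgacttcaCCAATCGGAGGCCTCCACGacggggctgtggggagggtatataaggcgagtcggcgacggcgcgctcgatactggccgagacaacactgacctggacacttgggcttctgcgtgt
Agr2, chr12:35992675-35992974: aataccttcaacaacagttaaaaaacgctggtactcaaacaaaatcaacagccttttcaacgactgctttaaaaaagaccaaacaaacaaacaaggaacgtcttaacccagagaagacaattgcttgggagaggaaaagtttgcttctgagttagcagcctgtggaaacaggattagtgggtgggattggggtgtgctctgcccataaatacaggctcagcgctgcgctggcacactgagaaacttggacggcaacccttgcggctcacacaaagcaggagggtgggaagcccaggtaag

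The libraries held 13093904 to 33211041 counts. The label of every library was borne out by EPR, listed as Smim31, whose counts ran from 297 to 1474 in EPR fl/fl and from 0 to 10 in EPR cKO. The library EPR cKO 1 stood apart in tissue content. Its summed level of 10 smooth muscle markers was 9709 CPM, a count scaled to the library total, where the other 5 of its group held 1086 to 2824 and EPR fl/fl held 3231 to 5642, and its summed level of 10 epithelial markers was 9747 CPM, against 11908 to 14766 in the other 5. The marker lists and some members are therefore also given without it, among them every member that passed the threshold in that fit. These members were not picked by how far this library moves them. Changes below are EPR cKO relative to EPR fl/fl, CPM values use TMM (trimmed mean of M values) scaling, and in whole tissue fewer cells of a type and less RNA per cell cannot be told apart.

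In control colon the members covered a wide range of levels. In CPM per kilobase of exon (RPKM), which allows genes of different length to be compared, Agr2 was the most abundant in EPR fl/fl with a mean of 1019. It was followed by P4hb (228) and Pdia3 (137) among the isomerases, and by the chaperone genes Calr (220), Hsp90b1 (159) and Canx (137). The median of the 45 means was 30.9 RPKM. The sensors were at the low end, with 10.5 RPKM for Atf6, 10.2 for Eif2ak3 and 6.29 for Ern1, whereas Ern2 stood at 26.0. Within paralogue pairs, Agr3 reached 1.33 RPKM and lay close to the limit of the filter, and the oxidase gene Ero1lb (1.70) lay well below Ero1l (12.9).

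No member passed the threshold when EPR cKO was compared with EPR fl/fl. With edgeR, 0 of 45 members had an adjusted p under 0.05, where 2.46% of all tested genes did (1.57% lower and 0.884% higher). None passed the stricter thresholds of the study (adjusted p under 0.001 with a minimum size of change), which 0.169% of all tested genes did. The paper's discussion names AGR2 and ERN2 among the factors that its RNA-Seq showed to be strongly reduced. At an unadjusted p under 0.05, 8 members were lower and 0 were higher, or 17.8% of the 45 in either direction. For all tested genes this share was 18.3% in either direction, 7.12% lower and 11.1% higher. The median log2 fold change of the members was -0.03, against 0.02 for all tested genes, and 57.8% of the members lay below 0, against 47.2% of all tested genes. For 38 of the 45 members the log2 fold change was under 0.3 in size, and for 35 the 95% interval lay within 0.5 of 0 on either side. These counts were not made for all tested genes, so they may not be particular to the members. The 8 members with an unadjusted p under 0.05 were Ern2, Eif2ak3, Agr2, Pdia5, Txndc5, Ero1lb, Dnajc10 and Herpud1, of which Dnajc10 and Herpud1 are named after their values were seen.

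**Figure D1:**
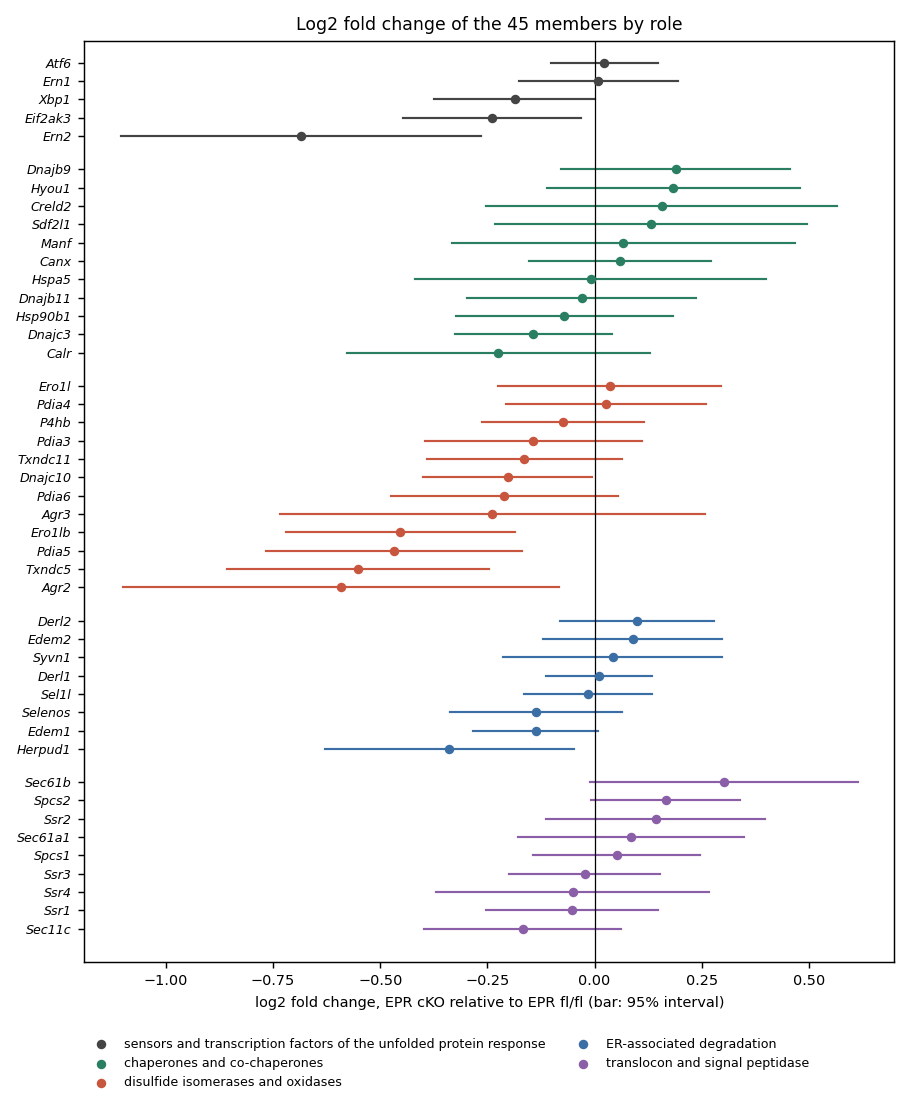
Log2 fold change of each of the 45 members (x axis, EPR cKO relative to EPR fl/fl, 6 libraries per group), grouped and coloured by role, with bars for the 95% interval from edgeR. The lowest points are Ern2 (-0.69), Agr2 (-0.59) and Txndc5 (-0.55), and the chaperones lie between -0.22 and 0.19.

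Of the sensors, Ern2 had the lowest log2 fold change, and none passed the threshold. Their median was -0.19, with 3 of 5 lower. Ern2, at chr7:122169940-122186204 (minus strand, mm10), encodes IRE1 beta. Its CPM ran from 53.2 to 116 in EPR fl/fl (median 67.4) and from 31.7 to 58.8 in EPR cKO (median 47.1). All 6 EPR cKO libraries lay below the EPR fl/fl mean, and the groups overlapped. Its log2 fold change was -0.69 (SE 0.19, edgeR adjusted p = 0.0866), and -0.61 (adjusted p = 0.0284) without EPR cKO 1.

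Ern1, which encodes IRE1 alpha, ran from 45.1 to 60.5 CPM in EPR fl/fl (median 51.0) and from 43.4 to 57.9 in EPR cKO (median 51.3). The log2 fold change was 0.01 (SE 0.09, edgeR adjusted p = 0.964, 95% interval -0.18 to 0.19), with a sign that turned under other scalings. Within each library the log2 ratio of Ern2 to Ern1 went from 0.51 ± 0.35 to -0.15 ± 0.35 (SD, n = 6 each), a difference of -0.66 (exact permutation p = 0.00866, 0.0139 adjusted over the 8 ratios tested). This ratio was below the control mean in 6 of 6 EPR cKO libraries.

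Eif2ak3, which encodes PERK, ran from 44.0 to 59.5 CPM in EPR fl/fl (median 48.4) and from 31.9 to 45.6 in EPR cKO (median 43.7). All 6 EPR cKO libraries lay below the control mean, with a log2 fold change of -0.24 (SE 0.10, edgeR adjusted p = 0.212), and -0.19 (SE 0.07, adjusted p = 0.0743) without EPR cKO 1, the lowest library at 31.9. Antisense exons of Gm43292 cover 10% of its exon bases. Atf6 was nearly level, with a median of 75.9 CPM in the controls and 77.3 in EPR cKO and a log2 fold change of 0.02 (SE 0.06, edgeR adjusted p = 0.853), whose sign also turned under other scalings. Its 95% interval was -0.10 to 0.15.

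Xbp1, whose mRNA is spliced by IRE1 to give the active transcription factor, ran from 165 to 193 CPM in EPR fl/fl (median 172) and from 127 to 189 in EPR cKO (median 152). In 5 of 6 EPR cKO libraries it lay below the control mean, with a log2 fold change of -0.19 (SE 0.09, edgeR adjusted p = 0.278). Counts per gene do not separate the spliced from the unspliced form.

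Among the chaperones, 5 of 11 were lower and 6 higher, and none passed the threshold. Their median log2 fold change was 0.06. Hspa5 encodes BiP, the main ER chaperone and the classical readout of the unfolded protein response. It ran from 268 to 542 CPM in EPR fl/fl (median 336) and from 289 to 520 in EPR cKO (median 321). The groups covered nearly the same range. The log2 fold change was -0.01 (SE 0.19, edgeR adjusted p = 0.983, 95% interval -0.42 to 0.40), and its sign turned with EPR cKO 1 left out (0.03).

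The largest positive values among the chaperones belonged to Dnajb9 (log2 fold change 0.19, SE 0.12, adjusted p = 0.428), a co-chaperone of BiP, to Hyou1 (0.18, SE 0.14, adjusted p = 0.491), a nucleotide exchange factor of BiP, and to Creld2 (0.16, SE 0.19, adjusted p = 0.672). Dnajb9 ran from 34.3 to 55.1 CPM in EPR fl/fl and from 39.5 to 57.5 in EPR cKO. Hyou1 ran from 82.5 to 119 CPM and from 90.5 to 144, and Creld2 from 15.1 to 25.0 CPM and from 14.8 to 30.9. In each the groups overlapped. Log2 fold changes of the 9 genes with an ERSE match had a median of -0.07 (6 below 0), and those of the 28 without a match a median of -0.05 (18 below 0).

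The disulfide isomerases and oxidases had the lowest median of the 5 groups of members. Of 12 genes, 10 had a log2 fold change below 0 and 2 above, the median was -0.21, and none passed the threshold. Agr2 (chr12:35992907-36004087, plus strand, mm10) encodes the isomerase that goblet cells use for the mucin MUC2. It ran from 642 to 887 CPM in EPR fl/fl (median 821) and from 200 to 788 in EPR cKO (median 543), where EPR cKO 1 held 200 and the other 5 held 489 to 788. All 6 EPR cKO libraries lay below the control mean, and 1 of them, EPR cKO 6, lay within the control range. The log2 fold change was -0.59 (SE 0.24, edgeR adjusted p = 0.209), and -0.44 (SE 0.13, adjusted p = 0.0260) without EPR cKO 1.

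Txndc5 (chr13:38500079-38528824, minus strand, mm10) encodes a thioredoxin-domain isomerase. It ran from 293 to 401 CPM in EPR fl/fl (median 319) and from 140 to 275 in EPR cKO (median 240). The groups did not overlap. EPR cKO 1 held 140 and the other 5 of its group held 232.5 to 275. The log2 fold change was -0.55 (SE 0.14, edgeR adjusted p = 0.0624), and -0.46 (SE 0.09, adjusted p = 0.00487) without EPR cKO 1. Exons of the antisense genes Bmp6 and Gm31834 cover 15.9% of its exon bases, and whether the counting used the strand is not stated.

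Ero1lb (chr13:12565874-12611396, plus strand, mm10) encodes an oxidase that reloads isomerases with disulfide bonds. It ran from 8.77 to 14.6 CPM in EPR fl/fl (median 10.8) and from 7.34 to 8.41 in EPR cKO (median 8.26), with no overlap. The log2 fold change was -0.45 (SE 0.12, edgeR adjusted p = 0.0763), and -0.46 (adjusted p = 0.0227) without EPR cKO 1. Of its 50-base stretches, 9.39% occur in transcripts of other genes, mostly Gm18562. Txndc5 and Ero1lb were thus the 2 members, 4.44% of the 45, whose groups did not overlap, both lower, where this held for 2.47% of all tested genes (1.47% lower). The paralogue Ero1l was at 0.03 (SE 0.12, adjusted p = 0.892).

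Pdia5, a further isomerase gene, ran from 24.6 to 42.2 CPM in EPR fl/fl (median 34.4) and from 19.8 to 28.3 in EPR cKO (median 25.2). All 6 EPR cKO libraries lay below the control mean, with a log2 fold change of -0.47 (SE 0.14, edgeR adjusted p = 0.101), and -0.43 (adjusted p = 0.0353) without EPR cKO 1. Agr3 was scarce, with a median of 1.15 CPM in the controls and 0.882 in EPR cKO, overlapping groups and a log2 fold change of -0.24 (SE 0.23, edgeR adjusted p = 0.596). The abundant isomerase genes P4hb (-0.07), Pdia3 (-0.14), Pdia6 (-0.21) and Pdia4 (0.03) had log2 fold changes with adjusted p from 0.377 to 0.908.

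**Figure D2:**
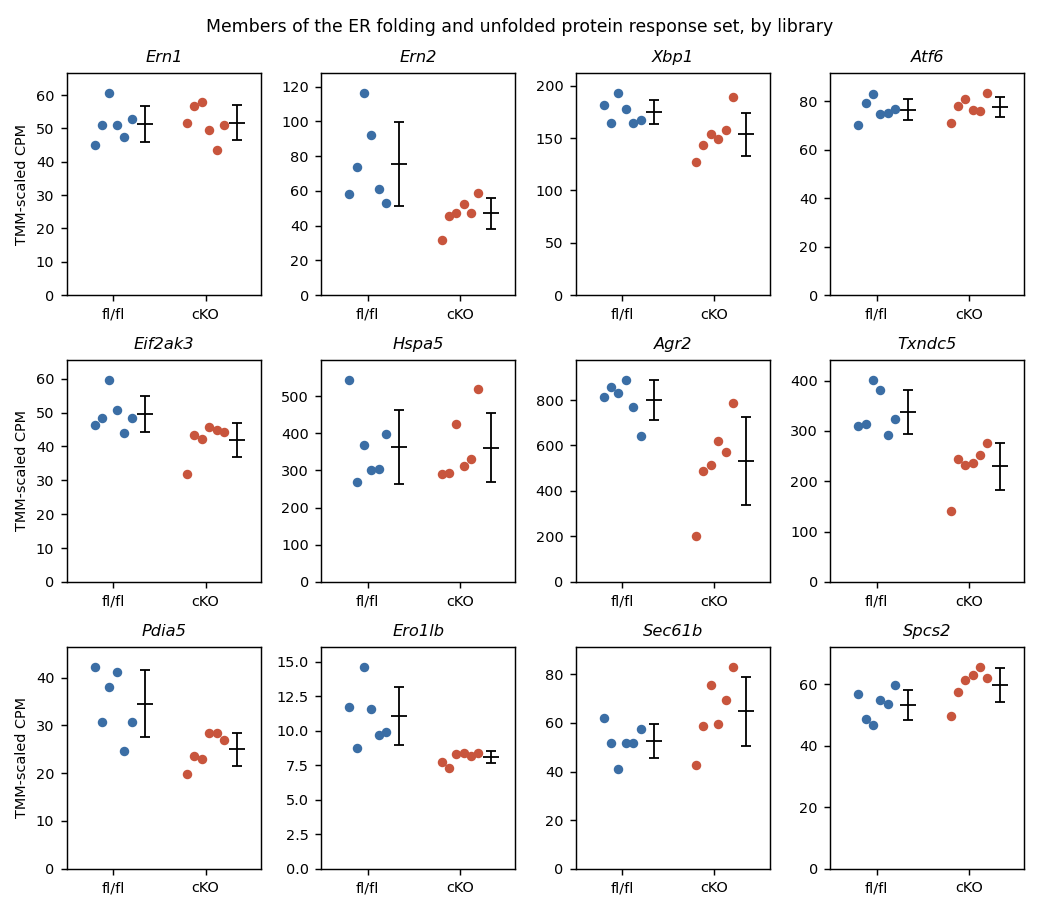
TMM-scaled CPM of 12 members in each library (points, 6 EPR fl/fl in blue and 6 EPR cKO in red, replicates 1 to 6 from left to right), with the mean and SD as bars. Txndc5 and Ero1lb do not overlap between the groups, Hspa5, Ern1 and Atf6 cover nearly the same range in both, and EPR cKO 1 is the lowest EPR cKO library for Agr2 (200) and Txndc5 (140).

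The genes of ER-associated degradation and of protein entry were close to level. The 8 degradation genes had a median log2 fold change of -0.0023, with 4 below 0 and 4 above. Herpud1, which organizes the ubiquitin ligase complex at the ER membrane, was the lowest (-0.34, SE 0.13, adjusted p = 0.207). The ligase gene Syvn1 (0.04), its partner Sel1l (-0.01) and the channel genes Derl1 (0.01) and Derl2 (0.10) had adjusted p from 0.541 to 0.938. Of the 9 translocon and signal peptidase genes, 4 were lower and 5 higher, with a median of 0.05.

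Sec61b, the small subunit of the translocon, had the largest positive value of all members. It ran from 41.1 to 61.9 CPM in EPR fl/fl (median 51.8) and from 42.6 to 82.9 in EPR cKO (median 64.4), with 5 of 6 EPR cKO libraries above the control mean. The log2 fold change was 0.30 (SE 0.14, edgeR adjusted p = 0.290), and 0.38 (adjusted p = 0.0346) without EPR cKO 1. Of its 50-base stretches, 17.4% are shared with other genes, mostly Gm10320, so that its counts are uncertain. Spcs2, a signal peptidase subunit, ran from 46.9 to 59.6 CPM in EPR fl/fl and from 49.7 to 65.6 in EPR cKO, with a log2 fold change of 0.17 (SE 0.08, edgeR adjusted p = 0.298). The 29 members not chosen by the naming rule given below include Herpud1 and others already described. They had log2 fold changes from -0.34 to 0.14 and adjusted p from 0.207 to 0.938, and 17 of them were lower.

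Among the EPR cKO libraries, many members had the same lowest and highest library. EPR cKO 1 held the lowest value of its group for 35 of 45 members and EPR cKO 6 the highest for 37, and 31 members showed both. The share of all tested genes with these same extreme libraries was not counted, so the pattern may not be particular to the members. EPR cKO 1 was below the control mean for 40 members, and EPR cKO 6 above it for 36. Summed over the members, CPM ran from 4909 (EPR cKO 1) to 8004 (EPR cKO 6) in EPR cKO, with a median of 6626, and from 6640 to 7928 in EPR fl/fl, with a median of 7061. The coefficient of variation was higher in EPR cKO than in EPR fl/fl for 32 members, with a median over members of 15.1% against 10.8%. These 32 are 71.1% of the members, where 61.4% of all tested genes had the higher coefficient in EPR cKO. Without EPR cKO 1 it was higher for 22 members (48.9%, against 47.1% of all tested genes), with a median of 11.1% in EPR cKO. Among the chaperones of EPR fl/fl, replicate 1 was the highest for 8 of 11 and replicate 2 the lowest for 8 of 11. Values of Hspa5 followed this, with 542 CPM in EPR fl/fl 1, 268 in EPR fl/fl 2 and, as the highest EPR cKO value, 520 in replicate 6.

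Markers of other cell types were set beside the members, by exact permutation tests on 8 lists whose p-values were not adjusted. The tests were repeated without EPR cKO 1, a choice made after seeing the data, where the smallest p possible is 0.00216. The goblet cell list (9 genes) fell from 18536 ± 5361 to 7114 ± 1165 summed CPM (SD, n = 6 each), with no overlap. Its exact permutation p was 0.00216, the smallest that a two-sided test of 6 against 6 libraries can give. The list was chosen with earlier results of these data known, and the paper already names Muc2, Fcgbp and Clca1 as reduced. This p is therefore no independent measure of goblet cell content. In this list 9 of 9 means were lower, and 6 of 9 genes were past an adjusted p of 0.05, all lower. They were Muc2, Klk1, Clca1, Zg16, Tff3 and Spdef. For Tff3 the paper reports similar levels in both genotypes by qRT-PCR of isolated crypts, a different material from the whole tissue used here. The goblet list in EPR cKO 1 was at 8443 CPM, the highest of its group, whose other 5 held 5538 to 8151 (exact p = 0.00433 without it). Of the goblet genes only Fcgbp was highest there, at 3839 CPM against 1787 to 2779 in the other 5. Klk1 (74.4 CPM), Spdef (31.4), Creb3l1 (35.0) and Zg16 (668) were lowest of the group in this library. The remaining goblet genes lay within the range of the other 5. The epithelium list (10 genes) was at 10132 ± 1536 and 12794 ± 1855 (exact p about 0.025), with 10 of 10 means higher in EPR cKO and 0 of 10 genes past the threshold. Without EPR cKO 1 its exact p was 0.00649.

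Plasma cells are also rich in ER. Their list with B cell genes (11 genes, 8 of them tested and 0 past the threshold) had a summed CPM of 1225 ± 344 in the controls and 1370 ± 437 in EPR cKO (exact p = 0.548). The mean was lower in EPR cKO for 7 of the 11 genes. EPR cKO 1 held 573, and the other 5 of its group 1331 to 1780 (exact p = 0.141 without it). Exocrine pancreas, a further ER-rich tissue, was at 0 to 6.04 CPM over its 8 genes (exact p = 0.465, and 0.634 without EPR cKO 1). Smooth muscle (10 genes, exact p = 0.416), macrophages (6 genes, exact p = 0.206) and endothelium (5 genes, exact p = 0.240) had lower means in EPR cKO for all their genes, with 0 past the threshold. Without EPR cKO 1 the smooth muscle sum was 1790 ± 766 CPM (n = 5), against 4387 ± 919 in the controls (exact p = 0.00216), with no overlap. The exact p without it was 0.0152 for endothelium and 0.0823 for macrophages. Adipocyte genes (4, with 0 past the threshold) were at 526 ± 284 and 190 ± 184 CPM (exact p = 0.0390, and 0.00649 without EPR cKO 1). The part of these cell types in the members' values was not tested beyond the ratios and fits given here.

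Ratios within a library are nearly free of scaling, and 8 were compared by two-sided exact permutation tests over 924 assignments of the libraries, with p adjusted over the 8. Relative to the mean of the epithelium list, Agr2 went from 0.09 ± 0.32 to -0.88 ± 0.52 on the log2 scale (SD, n = 6 each), a difference of -0.97 (exact p = 0.00433, adjusted 0.00866). Ern2 differed by -0.92 and Xbp1 by -0.46 on the same scale, both with an exact p of 0.00216, the smallest the test can give, and an adjusted p of 0.00577. Both were below the control mean in 6 of 6 EPR cKO libraries, with no overlap between the groups. Hspa5 differed by -0.27 (exact p = 0.149, adjusted 0.149). These 4 ratios share a denominator whose summed level was higher in EPR cKO. All 8 ratios use members and lists chosen with earlier results of these data known, so their p-values are not independent support.

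Relative to Hspa5, Agr2 was lower by a log2 difference of -0.69 (exact p = 0.0368, adjusted 0.0421). That adjusted p rose to between 0.0544 and 0.0841 when EPR fl/fl 2, 3, 4 or 5 or EPR cKO 1, 3 or 6 was left out, and the difference was -0.49 without EPR cKO 1. Relative to Muc2, the main mucin gene, both goblet members were higher in EPR cKO. The ratio of Agr2 to Muc2 rose from -3.23 ± 0.55 to -1.81 ± 0.85 (difference 1.42, exact p = 0.0130, adjusted 0.0173). The ratio of Ern2 to Muc2 rose from -6.67 ± 0.36 to -5.21 ± 0.50 (difference 1.46, exact p = 0.00216, adjusted 0.00577), with no overlap. Muc2 itself had a log2 fold change of -2.19 (SE 0.27) in edgeR, at an adjusted p of 0.000741. Since Muc2 fell by more than Agr2 or Ern2, the rise of both ratios to Muc2 follows from these fold changes.

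**Figure D3:**
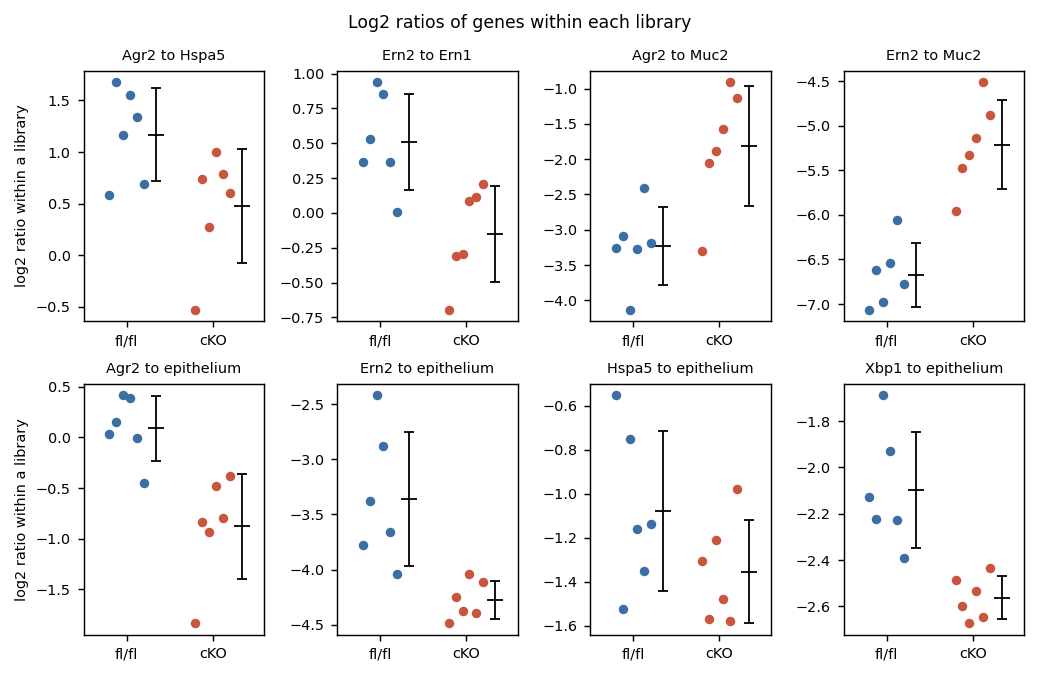
Log2 ratio of 2 genes, or of a gene to the mean of the epithelium list, within each library (points, 6 EPR fl/fl in blue and 6 EPR cKO in red), with the mean and SD as bars. Ern2 and Xbp1 to epithelium and Ern2 to Muc2 do not overlap between the groups, whereas Hspa5 to epithelium does.

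Calls among the members depended on EPR cKO 1, on the covariate and on the tool. Without EPR cKO 1, edgeR gave 5 members with an adjusted p under 0.05 that were lower (Ern2, Agr2, Txndc5, Pdia5 and Ero1lb) and 1 that was higher (Sec61b). These are 11.1% and 2.22% of the members, where 14.4% of all genes tested in that fit were called lower and 7.44% higher. With a tissue composition score as covariate (mean log2 CPM of the epithelium list minus that of the smooth muscle list), 7 members were lower, or 15.6%, and 0 were higher, where 1.48% of all tested genes were lower and 0.539% higher. They were Agr2 (log2 fold change -1.27, SE 0.14, adjusted p = 0.000309), Txndc5 (-0.85, adjusted p = 0.00332), Pdia5 (-0.66, 0.0385), Dnajc10 (-0.38, 0.0306), Pdia6 (-0.46, 0.0479), Sec11c (-0.38, 0.0409) and Ssr4 (-0.43, 0.0307), of which the last 4 are named after their values were seen. In this fit Agr2 also passed the study thresholds, Ern2 was at -0.94 (adjusted p = 0.0556), and Hspa5 at -0.18 (0.779). The score ran from 1.04 to 1.75 in the controls. Among EPR cKO libraries it was 0.095 in replicate 1 and 2.08 to 3.65 in the other 5. Without EPR cKO 1 the groups did not overlap in this score. The covariate fit thus rested on EPR cKO 1 to tell the score from genotype, and its calls cannot be read as free of tissue content. The DESeq2 Wald test gave 4 lower members (Ern2, Txndc5, Pdia5 and Ero1lb) and 0 higher, or 8.89% lower, where it called 2.97% of all tested genes lower and 2.77% higher. The limma-voom fit with sample quality weights gave 5 lower (Agr2 in addition) and 2 higher (Sec61b and Spcs2), or 11.1% and 4.44%, where it called 11.9% and 8.6% of all tested genes.

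**Figure D4:**
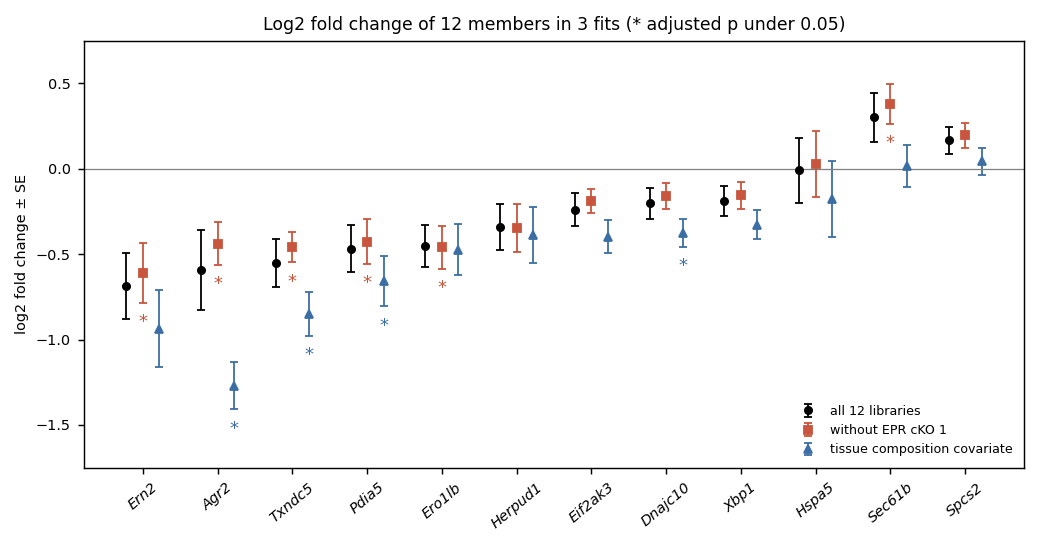
Log2 fold change ± SE (y axis) of 12 members in 3 edgeR fits, with all 12 libraries (black), without EPR cKO 1 (red) and with the tissue composition covariate (blue), where a star marks an adjusted p under 0.05. Agr2 moves from -0.59 to -0.44 and -1.27, and Ero1lb stays between -0.45 and -0.47.

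Other genes of the pathway, from a list of 54 with 52 tested, were examined too. Of these, 2 were past an adjusted p of 0.05, both lower, and 0 were higher, with a median log2 fold change of -0.02. The 2 are 3.85% of the 52, where 1.57% of all tested genes were called lower. At an unadjusted p under 0.05, 11 were lower (21.2%) and 1 higher (1.92%), where 7.12% and 11.1% of all tested genes were. Kdelr3, a receptor that returns escaped ER proteins from the Golgi, ran from 15.4 to 19.3 CPM in EPR fl/fl (median 16.4) and from 6.72 to 12.8 in EPR cKO (median 9.15), with no overlap and a log2 fold change of -0.83 (SE 0.13, edgeR adjusted p = 0.00521). Creb3l4, an ER-bound transcription factor of secretory cells, ran from 18.7 to 31.1 CPM and from 6.28 to 16.7, also with no overlap (-0.90, SE 0.21, adjusted p = 0.0366). Its relative Creb3l1, which is also in the goblet cell list, was at -0.52 (SE 0.16, adjusted p = 0.106). Genes of the PERK branch, named after their values were seen, had log2 fold changes of 0.02 for Atf4 (adjusted p = 0.924), 0.08 for Ddit3 (0.757), -0.13 for Ppp1r15a (0.673) and 0.25 for Eif2s1 (0.341), which encodes the substrate of PERK. Trib3 did not pass the filter, at a mean of 0.847 CPM in the controls and 0.490 in EPR cKO.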

How the data were processed

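Per the study's methods, the authors trimmed paired-end reads with Trimmomatic v0.39, aligned them with STAR v2.5.3a to mm10 and counted them per gene with featureCounts (Rsubread v1.6.4, Ensembl GRCm38.97). The authors deposited these counts unnormalized, with a summed exon length for each gene. Strand and multi-mapping settings are not given in the sources used here. Each count column was matched to a sample by name.

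Genes with at least 1 CPM in at least 4 libraries were tested in R 4.3.3 with edgeR 4.0.16 (TMM, glmQLFit and glmQLFTest, no covariate), with Benjamini-Hochberg adjustment over all 15952 genes. CPM and RPKM were computed from the counts. A prior count of 2 was added for log2 values per library. SE was the absolute log2 fold change divided by the square root of F. P-values set the difference between groups against the spread between libraries, 1 per mouse, which includes differences in tissue content. The smallest chi-square per gene between libraries of a group was 24.7 over 30 pairs, so that no library was a repeat.

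In simulated counts for this comparison, 200 genes were shifted, and edgeR found 12.5% of them at a log2 shift of 0.5 (15736 genes tested, 3.85% false calls) and 68% at a shift of 1 (15750 genes, 8.11%). DESeq2 1.42.0 gave 26.4% and 22.5% false calls. The counts were drawn independently for each gene, with no library that stood apart in tissue content as EPR cKO 1 does. These rates may therefore not hold for the real libraries. Alternatives were other scalings and filters, DESeq2, limma 3.58.1, a replicate block, a composition covariate and each library left out.

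The members and lists were chosen with earlier results of these data known. Named were the 5 sensors and factors, Agr2, Agr3, Hspa5, members past the threshold or without overlap, and the 5 largest rises and falls. Other pathway and marker genes were named when past the threshold or among the 3 largest changes, and the remaining genes were named after their values were seen. Shared 50-base stretches were counted on GENCODE M21 transcripts.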

Additional observations from a re-analysis of the deposited data

Results flagged for a closer look

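In a group of 6, a library was noted when its gap to the nearest of the others, divided by the range, exceeded Dixon's 95% critical value. This happened for 4 of 106 sets of values, where chance gives about 5.3. EPR cKO 1 was low for Eif2ak3, at 31.9 CPM where the rest of its group held 42.1 to 45.6, and for Txndc5, at 140.3 against 232.5 to 275.0. EPR fl/fl 1 was high for Hsp90b1, at 576 CPM against 405 to 465. EPR cKO 6 was high for Herpud1, at 85.9 CPM against 51.0 to 61.4.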

How the results depend on the processing

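The count of members called lower (0) became 4 with the DESeq2 Wald test, 5 with limma-voom with sample quality weights and 7 with the composition covariate, and that of higher members (0) became 2 with limma-voom. DESeq2 called 2.97% of all genes lower, limma-voom 11.9% lower and 8.6% higher, and the covariate fit 1.48% lower. The count past the study thresholds (0) became 1 with the covariate, where the median of the members became -0.20. The other scalings and filters left these counts at 0. Leaving out 1 library gave 0 to 5 lower and 0 to 1 higher members, 0 past the study thresholds, and medians from -0.091 to -0.0053. The highest counts came without EPR cKO 1, where 14.4% of all tested genes were lower and 7.44% higher. Besides the fit without EPR cKO 1, Ero1lb passed 0.05 without EPR fl/fl 2 (adjusted p = 0.0495). Of the 45 members, 34 were never called under any alternative or with any library left out. The same count was not made for all tested genes, so it may not be particular to the members. The cause of the differences between fits was not tested.

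The labels do not say whether replicate numbers pair the libraries. The correlation of same-numbered libraries' deviations ran from -0.242 to 0.34, and 1 of 6 numbers correlated best with its own. These values cannot settle the question, since deviations also follow tissue content. The replicate block left the member counts at 0. In the paired sign-flip test with this block, 7 ratios lost their call with the differences unchanged, at -0.69 for Agr2 to Hspa5, -0.66 for Ern2 to Ern1, 1.42 for Agr2 to Muc2, 1.46 for Ern2 to Muc2, and -0.97, -0.92 and -0.46 for Agr2, Ern2 and Xbp1 to epithelium. Their adjusted p were 0.0625 to 0.0714, where 0.03125 is the smallest unadjusted p that test can give. With a prior count of 0.5 all 8 ratios kept their direction and their side of the threshold. With 1 library left out, the ratio of Agr2 to Hspa5 ran from -0.81 to -0.49 and lost its call in 7 of 12 cases. The other 6 ratios with a call kept it, and Hspa5 to epithelium had none.

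Values near 0 changed sign. Ern1 was -0.025 with total counts and -0.017 without the filter, and -0.032 to 0.060 with 1 library left out. Atf6 was -0.0094, -0.00096 and, with the covariate, -0.024, and -0.0085 to 0.045 with 1 library left out. Hspa5 was 0.12 with limma-voom and 0.00093 with the block, and -0.14 to 0.13 with 1 library left out. Creld2 was -0.094 with the covariate. Ern2, Agr2, Txndc5, Pdia5 and Ero1lb were lower under all 8 alternatives and with any 1 of the 12 libraries left out, and their highest adjusted p was 0.370.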
